A study of Mus musculus with 8 samples.

Results

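The genes described here are the chains of collagen and laminin and the subunits of integrin, the matrix of the dermis and of the basement membrane together with the receptors by which cells hold on to it. They were taken by symbol among the rows of the deposited table that matched a mouse gene by RefSeq accession, and had to have a value on at least 3 arrays. This gave 42 of the 6587 named genes of the array: 19 collagen chains, 4 laminin chains, 16 integrin subunits and 3 genes whose symbols also begin with Itgb but which encode proteins that bind integrin tails (Itgb1bp1, Itgb1bp2 and Itgb3bp). Itgae, with a value on 1 array, was left out. Of 86 genes of these names in the annotation, 43 had no row matched by accession, among them Col1a1, Col3a1, Col4a1, Lama3, Lama5, Itgb1 and Itgb4, and these were not analysed here.

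RNA of whole skin from near naked hairless mutant mice, a mutant of the hairless locus, was hybridized against RNA of wild type mice on 8 arrays with 2 colours. All mice were 7 days old, from 1 litter, with 5 biological replicates stated, and neither strain nor genotype at other loci is given. Dyes were swapped between arrays, with the mutant RNA in Cy5 on arrays 2, 4, 6 and 7 and in Cy3 on arrays 1, 3, 5 and 8. Which animal was on which array is not labelled. With 8 arrays from 5 replicates some arrays shared an animal, so the p-values below treat related arrays as separate and come out too small.

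Values are log2 ratios, read as mutant over wild type. That direction is likely from the order in which labels and design text name the groups, but no source used here states it, nor whether the arrays with swapped dyes were turned to one direction, as is assumed here. Were the table turned the other way, higher and lower would swap throughout, whereas sizes and tests would hold. The share of spots with a value ran from 41.3% on array 3 to 88.3% on array 6, and the SD over spots from 0.57 on array 5 to 1.60 on array 2. Only ratios were used, so that no level stands behind a ratio and the presence of skin markers could not be examined as levels. Of 12 keratinocyte markers 5 had a probe and 3 were tested, with Krt1 higher (1.30 ± 0.27, SE), Lor at 0.33 ± 0.20 and Ivl at -1.06 ± 0.28 (adjusted p = 0.0733). The gene of the locus, Hr, had values on 6 arrays from -1.16 to 0.60 with 3 on each side of 0. Its fitted ratio was -0.11 ± 0.28 (SE, adjusted p = 0.884 in limma). Its probe may lie outside the altered part, which was not tested.

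Collagens are triple helices of 3 chains. The fibrillar types build the fibres of the dermis, type VI forms fine filaments around cells, and type VII forms the anchoring fibrils that fasten the epidermal basement membrane to the dermis. Laminins are trimers of an alpha, a beta and a gamma chain that lie in the basement membrane itself. Integrins pair an alpha with a beta subunit and bind collagen, laminin, proteins with an RGD motif or receptors on other cells. In the skin the hair follicle grows down into the dermis within its own basement membrane, and hemidesmosomes, which hold the transmembrane collagen XVII, anchor basal keratinocytes to it.

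The sequences 5′ of the start site are shown for 5 collagen genes on which the account below turns. Col11a1, Col11a2, Col17a1 and Col19a1 had ratios that moved together over the arrays, and Col6a1 had the smallest unadjusted p of the collagens. Each run is the 250 bases before the annotated start, from RefSeq on GRCm38.p6, read 5′ to 3′ on the strand of the gene, with matches in either orientation to any of 3 promoter motifs in capitals. These are the TATA box (TATAAA), the CCAAT box (its 5 letters as named) and the GC box (GGGCGG). The windows are chr3:114030290-114030539, plus strand (Col11a1), chr17:34038888-34039137, plus strand (Col11a2), chr19:47692043-47692292, minus strand (Col17a1), chr1:24587438-24587687, minus strand (Col19a1) and chr10:76726045-76726294, minus strand (Col6a1).
Col11a1: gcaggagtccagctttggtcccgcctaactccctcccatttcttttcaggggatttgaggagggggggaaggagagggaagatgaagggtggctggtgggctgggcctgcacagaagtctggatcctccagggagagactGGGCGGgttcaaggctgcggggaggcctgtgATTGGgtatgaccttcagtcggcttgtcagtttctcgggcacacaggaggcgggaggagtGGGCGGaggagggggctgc
Col11a2: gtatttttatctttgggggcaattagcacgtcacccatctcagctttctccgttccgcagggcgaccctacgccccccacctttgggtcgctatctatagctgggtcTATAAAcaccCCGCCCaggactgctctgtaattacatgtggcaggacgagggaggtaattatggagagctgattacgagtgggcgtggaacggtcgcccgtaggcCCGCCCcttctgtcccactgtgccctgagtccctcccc
Col17a1: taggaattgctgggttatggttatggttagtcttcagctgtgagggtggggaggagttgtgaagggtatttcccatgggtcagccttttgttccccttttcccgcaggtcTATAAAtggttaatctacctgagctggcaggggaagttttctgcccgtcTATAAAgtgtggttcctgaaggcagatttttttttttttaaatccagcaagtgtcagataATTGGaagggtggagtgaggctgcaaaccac
Col19a1: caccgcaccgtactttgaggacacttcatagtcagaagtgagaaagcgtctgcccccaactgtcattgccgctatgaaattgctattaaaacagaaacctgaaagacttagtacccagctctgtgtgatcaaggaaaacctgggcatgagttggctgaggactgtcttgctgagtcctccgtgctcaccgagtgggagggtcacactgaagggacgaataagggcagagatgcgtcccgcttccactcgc
Col6a1: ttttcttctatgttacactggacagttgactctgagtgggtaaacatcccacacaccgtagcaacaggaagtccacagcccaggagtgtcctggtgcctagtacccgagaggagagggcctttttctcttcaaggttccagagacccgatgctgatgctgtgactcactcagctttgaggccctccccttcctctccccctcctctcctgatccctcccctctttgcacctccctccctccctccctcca

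These 4 genes that moved together had no motif of the 3 in common. GGGCGG was found at 2 places each before Col11a1 and Col11a2 and not before Col17a1, Col19a1 or Col6a1. TATAAA stood at 2 places before Col17a1 and at 1 before Col11a2, and CCAAT at 1 place each before Col11a1 and Col17a1. Of all 32851 windows of this length in the table, 32.7% held GGGCGG, 33.8% CCAAT and 12.4% TATAAA. The table held windows for 31 of the 42 genes, and none of Col2a1, Col5a2 or Itga7. A match is a description of letters and not a site of binding.

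No collagen, laminin or integrin gene passed the test for a difference between mutant and wild type skin. Of the 42 genes, 24 had enough values to be tested, meaning 3 or more arrays in each dye orientation: 12 collagens, 4 laminins, 6 integrins and 2 of the integrin-binding genes. None was past an adjusted p of 0.05 (limma, a mean ratio with a dye term, Benjamini-Hochberg over all genes; lowest adjusted p = 0.179), against 3.47% of all 3779 genes tested (0.662% higher and 2.80% lower). None with 6 or more arrays had one sign on every array, as 6.99% of all genes tested had. At an unadjusted p under 0.05 there were 3 of the 24, Col6a1, Itga7 and Itgb1bp1, against 19.5% of all genes tested. With quantile normalization 9.26% of all genes were called and again 0 of the 24. The count over all genes, 131, was unsteady: leaving out array 1 gave 53, array 2 gave 85, array 4 gave 82, array 5 gave 72 and array 6 gave 60. Among the 24 the count stayed at 0 whichever array was left out.

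The precision allowed only a bound on most of these genes. The SE of a fitted ratio had a median of 0.21 over the 24 genes. The 95% interval lay wholly between -1 and 1 for 19 of them, as it did for 2749 of all 3779 genes tested. For these 19 a 2-fold difference in either direction lay outside the interval. The other 5 of the 24 were Col5a1, Col7a1, Col9a1, Itga2b and Itgb1bp1. The bound for the 19 rests on the assumed base and direction of the ratios. Arrays that share an animal also make the intervals too narrow. Had the arrays with swapped dyes not been turned, Col17a1, among the 19, would stand at 0.86 ± 0.19 (SE) in size, near a 2-fold difference. Read as Cy5 over Cy3, others of the 19 also lay further from 0. Among them were Col11a1 at 0.79 ± 0.21, Itgb7 at -0.78 ± 0.21, Itgax at -0.67 ± 0.24 and Col2a1 at -0.66 ± 0.27. Some lay nearer 0, such as Col6a1 at 0.10 ± 0.20. The genes within the bound were not counted for that reading, so the bound need not hold under it. In RNA of whole skin, fewer cells of a type and less RNA per cell cannot be told apart.

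**Figure D1:**
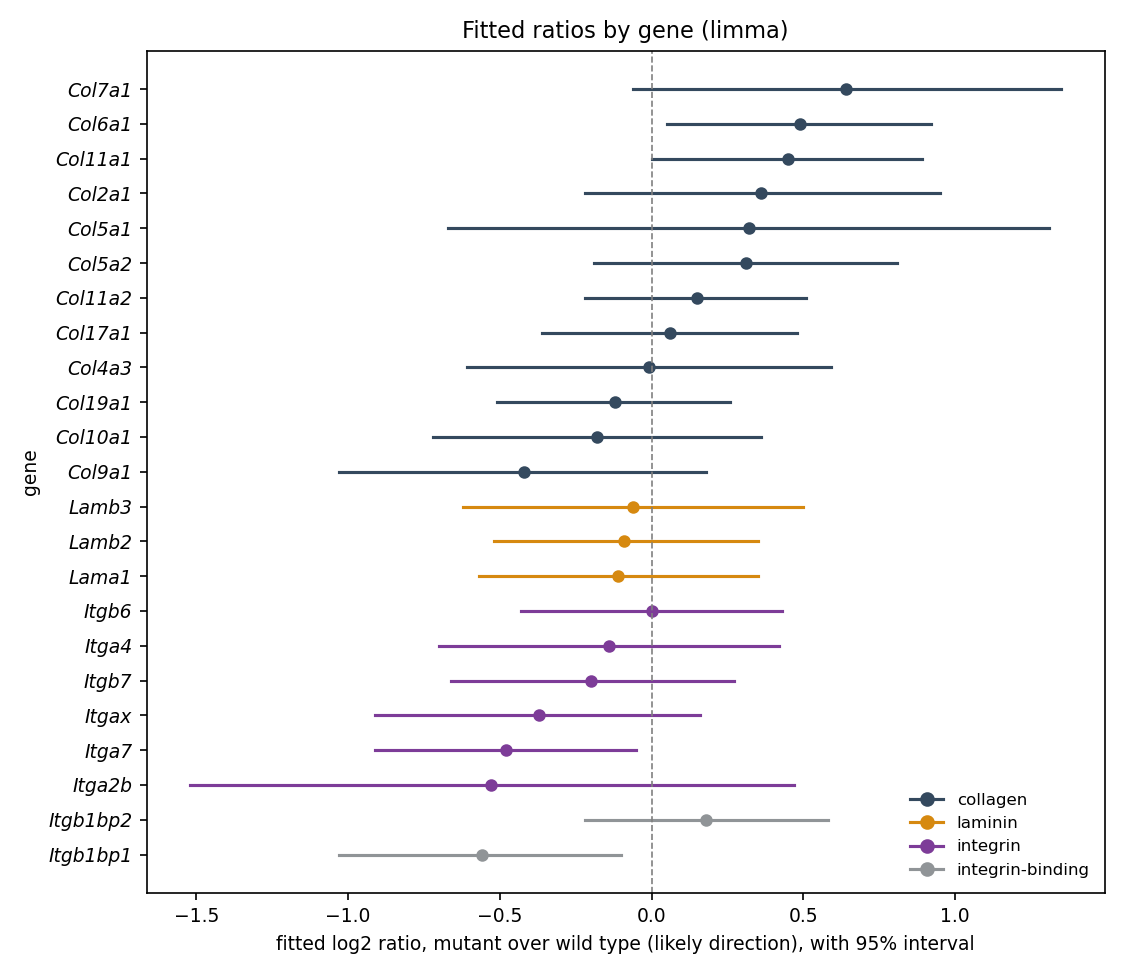
Fitted log2 ratio of mutant over wild type (points, horizontal axis) with its 95% interval (lines) for 23 of the 24 genes tested, grouped by family. The intervals of Col6a1, Itga7 and Itgb1bp1 lie to one side of 0 before adjustment, that of Col11a1 ends at 0, and the others span it.

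By family, the collagens lay mostly above 0 and the laminins and integrins mostly below. Of 12 collagens tested 8 had fitted ratios above 0, with a median of 0.23, a lowest of -0.42 and a highest of 0.64. All 4 laminins were below 0 (median -0.10) and 5 of 6 integrins were (median -0.28). Single arrays moved these medians: without array 4 that of the collagens was 0.14 and that of the laminins -0.03, and the laminin median reached -0.18 without array 1, -0.17 without array 2 and -0.16 without array 7. The integrin median was -0.14 without array 2 and -0.18 without array 8. With a looser filter, described below, the medians were 0.06 for collagens and -0.10 for integrins. With arrays weighted by their spread the collagen median was 0.07, and without arrays 2 and 8 it was 0.06. With those weights the laminin median was -0.22 and the integrin median -0.29. The median of all genes tested was 0.05, with 2088 above 0 and 1691 below. In size the 24 ratios were like those of other genes, with a median absolute ratio of 0.25 against 0.27.

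The order of the families was not the same on every array. The median of the collagens with a value ran from -0.11 on array 2 to 0.40 on array 7 and was above 0 on 6 of 8 arrays. That of the integrins ran from -1.32 on array 2 to 0.98 on array 3 and was above 0 on 2 of 8, and it rested on 5 genes on array 2 and on 4 on array 3. The laminin median ran from -0.49 on array 4 to 0.42 on array 3. On the arrays with the mutant RNA in Cy5 the integrin medians averaged -0.46 and on those with it in Cy3 0.26, so that the integrins lay below the collagens on all 4 of the former, and above them on arrays 3 and 5 of the latter.

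Among the matrix collagens of skin, Col6a1 came closest to a difference. It encodes a chain of collagen VI. Its ratios were 0.47, 1.27, 0.94 and -0.32 on arrays 2, 4, 6 and 7, and 0.32, 0.38, 0.17 and 0.66 on arrays 1, 3, 5 and 8. The orientations overlapped, and 7 of 8 arrays lay above 0, with array 7 alone below. The fitted ratio was 0.49 ± 0.20 (SE, adjusted p = 0.206), and an exact sign-flip test over the arrays gave p = 0.0234, two-sided, before any adjustment. Without array 7 it stood at 0.64 ± 0.18, which was not past the threshold either (adjusted p = 0.109). It was lower, at 0.38, without array 4 and at 0.43 without array 6. Read as Cy5 over Cy3 it was 0.10 ± 0.20 (adjusted p = 0.739 in limma).

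Col7a1, the gene of the anchoring fibril collagen, had the highest fitted ratio of the 24 genes tested. Its values were 0.93, 0.25 and -1.09 on arrays 4, 6 and 7, and 1.04, 2.82, 0.57 and 0.61 on arrays 1, 3, 5 and 8. Again array 7 was the 1 array below 0, and array 3 the highest. The fitted ratio was 0.64 ± 0.32 (SE, 7 arrays, adjusted p = 0.300), and it was 0.38 without array 3 and 0.42 without array 4.

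The genes of collagen V, which sets the width of the fibrils of collagen I, were not seen to differ from each other. Col5a2 stood at 0.31 ± 0.23 (SE, 8 arrays) and Col5a1 at 0.32 ± 0.44 (6 arrays), and the latter rested on a value of 2.87 on array 8. Without it the mean of Col5a1 was -0.19 ± 0.64 (SD) in place of 0.32 ± 1.38. Col5a3, measured on 6 arrays but on too few with the mutant in Cy3 to be tested, had a mean of -0.37 ± 0.62 (SD). Col1a2, a chain of the main fibre collagen of the dermis, had values on 5 arrays, -1.79, -0.50, 0.60, 1.05 and 0.71 on arrays 2, 4, 5, 6 and 8, with a mean of 0.01 ± 1.16 (SD). Its arrays lay on both sides of 0. In the fit with that looser filter its 95% interval ran from -0.79 to 1.04, which takes in a 2-fold difference upward.

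The fibrillar collagens Col2a1 and Col5a2 followed each other closely from array to array. Col2a1, best known as the main collagen of cartilage, was at 0.53, -0.83, 1.77, 0.95, 0.85, 0.27, -1.56 and 0.93 on arrays 1 to 8. Col5a2 was at 0.51, -0.13, 1.45, 0.61, 0.70, 0.05, -1.43 and 0.70 on the same arrays. They had the same sign on 8 of 8 arrays and differed by 0.26 on average and by 0.70 at most, the smallest mean difference of the pairs among the 13 genes with values on all 8 arrays. Both were lowest on array 7 and highest on array 3, as Col7a1 was. The pair was picked after its values were seen, and the points share their arrays, so this is a description. Col2a1 had a fitted ratio of 0.36 ± 0.27 (adjusted p = 0.482).

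Collagens best known from cartilage and from specialised membranes showed no common shift. Col9a1, a fibril-associated collagen, was lowest of the collagens tested at -0.42 ± 0.28 (SE, adjusted p = 0.423), with 6 of 8 arrays below 0, a lowest value of -1.80 on array 3 and a highest of 0.69 on array 7. It was -0.25 without array 3 and -0.18 without array 4. Col10a1 of growing cartilage stood at -0.18 ± 0.24 with 3 of 6 arrays on each side of 0, and Col4a3, a basement membrane chain, at -0.01 ± 0.27. All 3 fibril-associated collagens with values, Col9a1, Col9a2 and Col19a1, had means below 0, from -0.42 to -0.12, whereas 6 of 7 fibrillar collagens had means above 0, from -0.37 to 0.45 for the whole class. Over the arrays, single genes of these classes had SDs of up to 1.47 (Col9a2, fibril-associated) and 1.38 (Col5a1, fibrillar). This split by class was not tested.

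**Figure D2:**
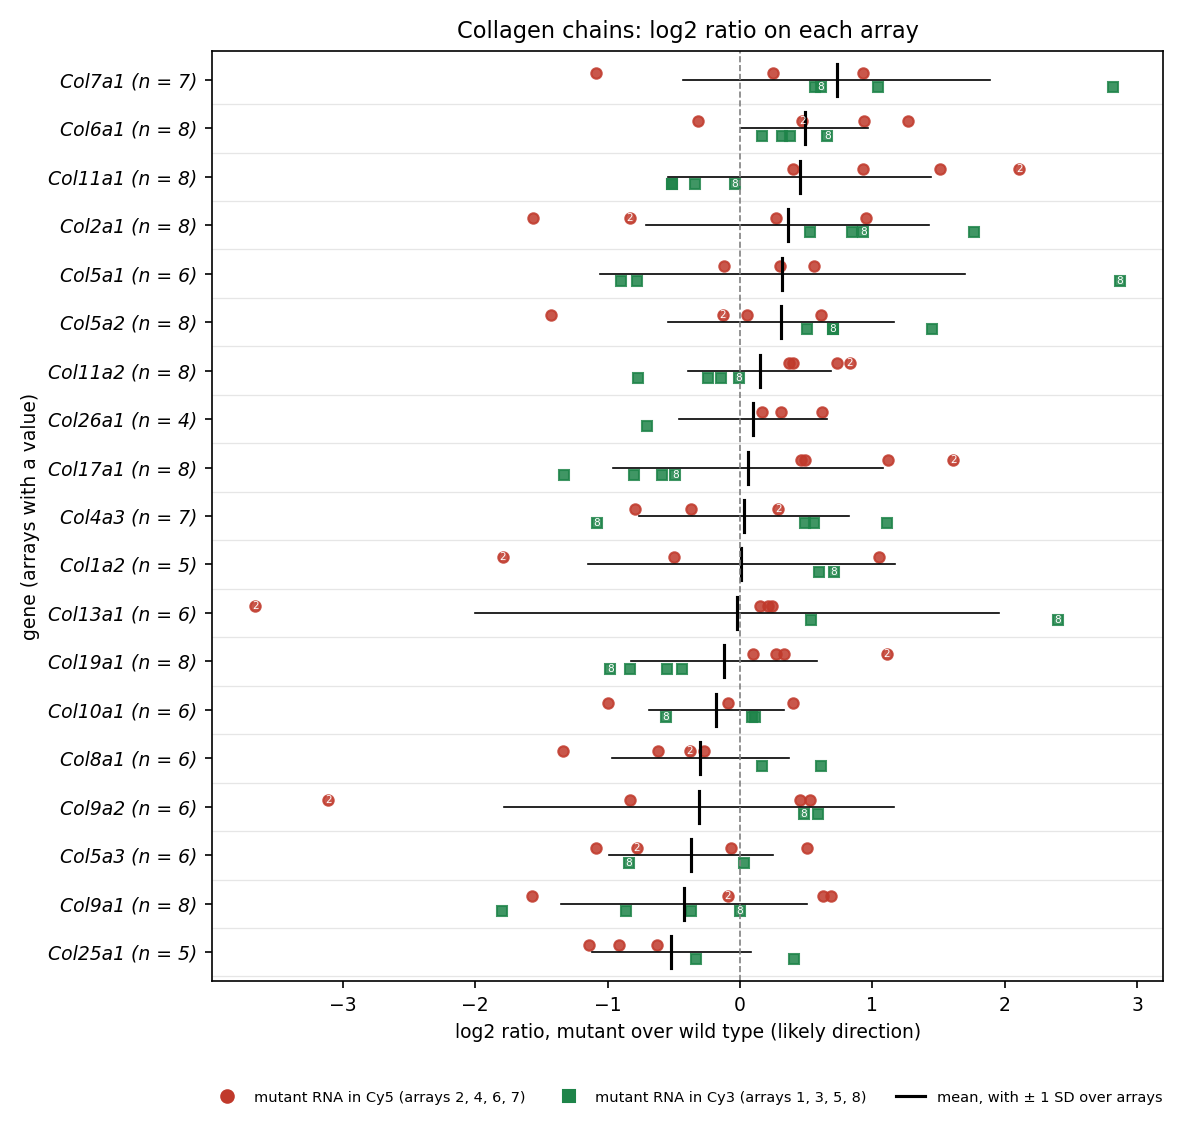
Log2 ratio of mutant over wild type (horizontal axis) on each array for the 19 collagen genes, ordered by mean, with circles for arrays with the mutant RNA in Cy5 and squares for arrays with it in Cy3. Numbers inside points mark arrays 2 and 8, the black bar is the mean and the thin line ± 1 SD over the arrays with a value. Col11a1, Col11a2, Col17a1 and Col19a1 have all circles above 0 and all squares below.

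The largest regularity among the collagens followed the dye and not the genotype as the table was read here. Col17a1, the transmembrane collagen of hemidesmosomes, was at 1.61, 1.12, 0.46 and 0.49 on arrays 2, 4, 6 and 7 and at -0.59, -1.33, -0.80 and -0.49 on arrays 1, 3, 5 and 8. All arrays with the mutant in Cy5 were above 0 and all with it in Cy3 below. The means of the orientations were 0.92 ± 0.55 and -0.80 ± 0.38 (SD, n = 4 each). The dye part, the ratio with the mutant in Cy5 minus that with it in Cy3, was 1.72 ± 0.39 (SE, adjusted p = 0.0479 in limma), and the fitted mutant over wild type ratio was 0.06 ± 0.19 (adjusted p = 0.893). The call of the dye part held without array 8 and was lost without each of the others, with adjusted p from 0.0305 without array 8 to 0.132 without array 3 and values from 1.49 to 1.87.

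Col11a1, Col11a2 and Col19a1 split in the same way. Both Col11a1 and Col11a2 encode chains of collagen XI, a minor collagen of fibrils in cartilage. Col11a1 was at 2.11, 1.51, 0.40 and 0.93 with the mutant in Cy5 (arrays 2, 4, 6 and 7) and at -0.34, -0.51, -0.51 and -0.04 with it in Cy3 (arrays 1, 3, 5 and 8). Col11a2 was at 0.83, 0.73, 0.37 and 0.40 against -0.14, -0.77, -0.24 and -0.01. Col19a1, a fibril-associated collagen, was at 1.11, 0.10, 0.27 and 0.33 against -0.55, -0.83, -0.44 and -0.98. In all 3 genes the orientations did not overlap. Their dye parts were 1.59 ± 0.41, 0.87 ± 0.34 and 1.15 ± 0.36 (SE), none past the test (adjusted p = 0.0589, 0.112 and 0.0759). Averaged over both orientations, the ratio of Col11a1 was 0.45 ± 0.21 (adjusted p = 0.258). Those of Col11a2 and Col19a1 were 0.15 ± 0.17 and -0.12 ± 0.18. The 4 genes were named after their values were seen.

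If the table held Cy5 over Cy3 and had not been turned, the dye part of a gene would be 2 times its genotype ratio. Under that reading Col17a1 was the 1 gene of the 24 past the test, at 0.86 ± 0.19 (adjusted p = 0.0479), and 1.75% of all genes tested were. Read as Cy3 over Cy5 its sign would turn. Of the 24 genes, 9 had orientations that did not overlap, against 26.4% of all genes tested, and 5 had opposite signs in the orientations on every array, against 11.0%. The 9 were Col11a1, Col11a2, Col17a1, Col19a1 and Itgb1bp1, higher with the mutant in Cy5, and Itga4, Itgb7, Itgb1bp2 and Lamb2, higher with it in Cy3. The dye part was below 0 for 17 of the 24, among them all 4 laminins and all 6 integrins, and for 2081 of the 3779 genes.

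**Figure D3:**
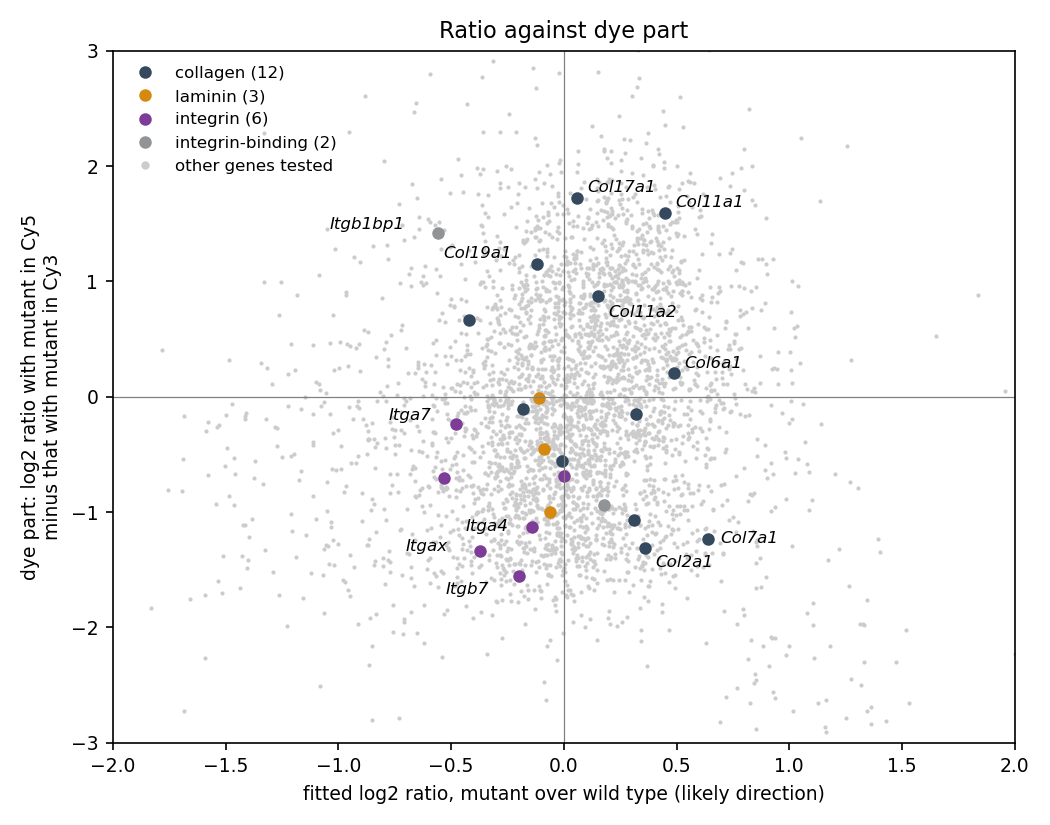
Fitted log2 ratio of mutant over wild type (horizontal axis) against the dye part (vertical axis, log2) for 23 of the 24 genes tested, coloured by family, over all other genes tested in grey, of which 16 lie outside the axes. The collagens spread from -1.31 for Col2a1 to 1.72 for Col17a1 on the dye axis, while the laminins and integrins all lie below 0 on it.

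The laminins of the array were few and near 0. Lamb3 encodes the beta chain of the laminin that anchors the epidermis. Lamb3 was at 0.40, -0.91, -1.42 and -0.33 on arrays 2, 4, 6 and 7 and at 1.04, 0.48 and -0.21 on arrays 1, 3 and 5, so that the orientations overlapped. Its fitted ratio was -0.06 ± 0.25 (SE, adjusted p = 0.917). Lama1 and Lamb2, chains of other laminins, stood at -0.11 ± 0.21 and -0.09 ± 0.20 with 6 arrays each. Their values stayed between -0.50 and 0.31, the narrowest range among the genes tested here. Neither had a value on arrays 2 and 3, which had the widest SDs over spots, 1.60 and 1.32. Their range is therefore not comparable with that of genes measured there.

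Chains that assemble into one protein could be compared directly, within each array. Of the pairs listed for this, 5 had both genes on at least 6 arrays, among them Col5a1 and Col5a2, Col9a1 and Col9a2, Col11a1 and Col11a2, and the integrin pair Itga4 and Itgb7. No pair differed past the test (exact sign-flip test, two-sided, adjusted over 5 pairs, lowest adjusted p = 0.820). The smallest p this test can give is 0.0312 with 6 arrays and 0.00781 with 8. Adjusted over 5 pairs, a pair with fewer than 8 arrays could not pass by itself. The closest to a difference was Col11a1 over Col11a2, by 0.30 ± 0.54 (SD, n = 8), higher on 5 of 8 arrays (p = 0.164 before adjustment, exact). Itga4 minus Itgb7 was -0.15 ± 0.77 (SD, n = 6). Single arrays differed by up to 3.02 in Col9a1 minus Col9a2. Among these pairs Col11a1 and Col11a2, with 8 arrays, could have passed by itself and did not. At this spread and number of arrays, a small difference there or unequal ratios in the other pairs could have been missed.

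Among the receptors for laminin, Itga7 had the most even ratios. It encodes an alpha subunit best known from muscle. It was at -0.48, -0.74, -0.64 and -0.54 on arrays 2, 4, 6 and 7 and at -0.20, 0.08 and -0.96 on arrays 1, 5 and 8, which is below 0 on 6 of 7. The fitted ratio was -0.48 ± 0.19 (SE, adjusted p = 0.207), and the exact sign-flip test gave p = 0.0312, two-sided, unadjusted. Read as Cy5 over Cy3 it was -0.12 ± 0.19 (adjusted p = 0.694 in limma). Of 12 skeletal muscle markers 6 had a probe and 1 was tested, Tnnt3 at -1.23 ± 0.34 (adjusted p = 0.0721), and the median of the 6 ran from -2.71 to 1.78 over the arrays. Their part in the ratio of Itga7 was not tested.

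The other laminin receptors had too few arrays for the test. Itga6, the alpha subunit of the hemidesmosome, was at 0.30, -0.22, 0.46, -0.31 and 2.43 on arrays 4 to 8. Array 8 stood apart, and without it the mean was 0.06 ± 0.38 (SD, n = 4) in place of 0.53 ± 1.11. Itga3, an alpha subunit of basal keratinocytes, was at -2.77 on array 2 and between -0.14 and 0.87 on 5 other arrays, and its mean was -0.18 ± 1.34 with array 2 and 0.34 ± 0.48 without it. For both genes a single array set the sign or most of the size of the mean. Itga2, a collagen receptor, had 3 values, all below 0, from -0.55 to -0.11.

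**Figure D4:**
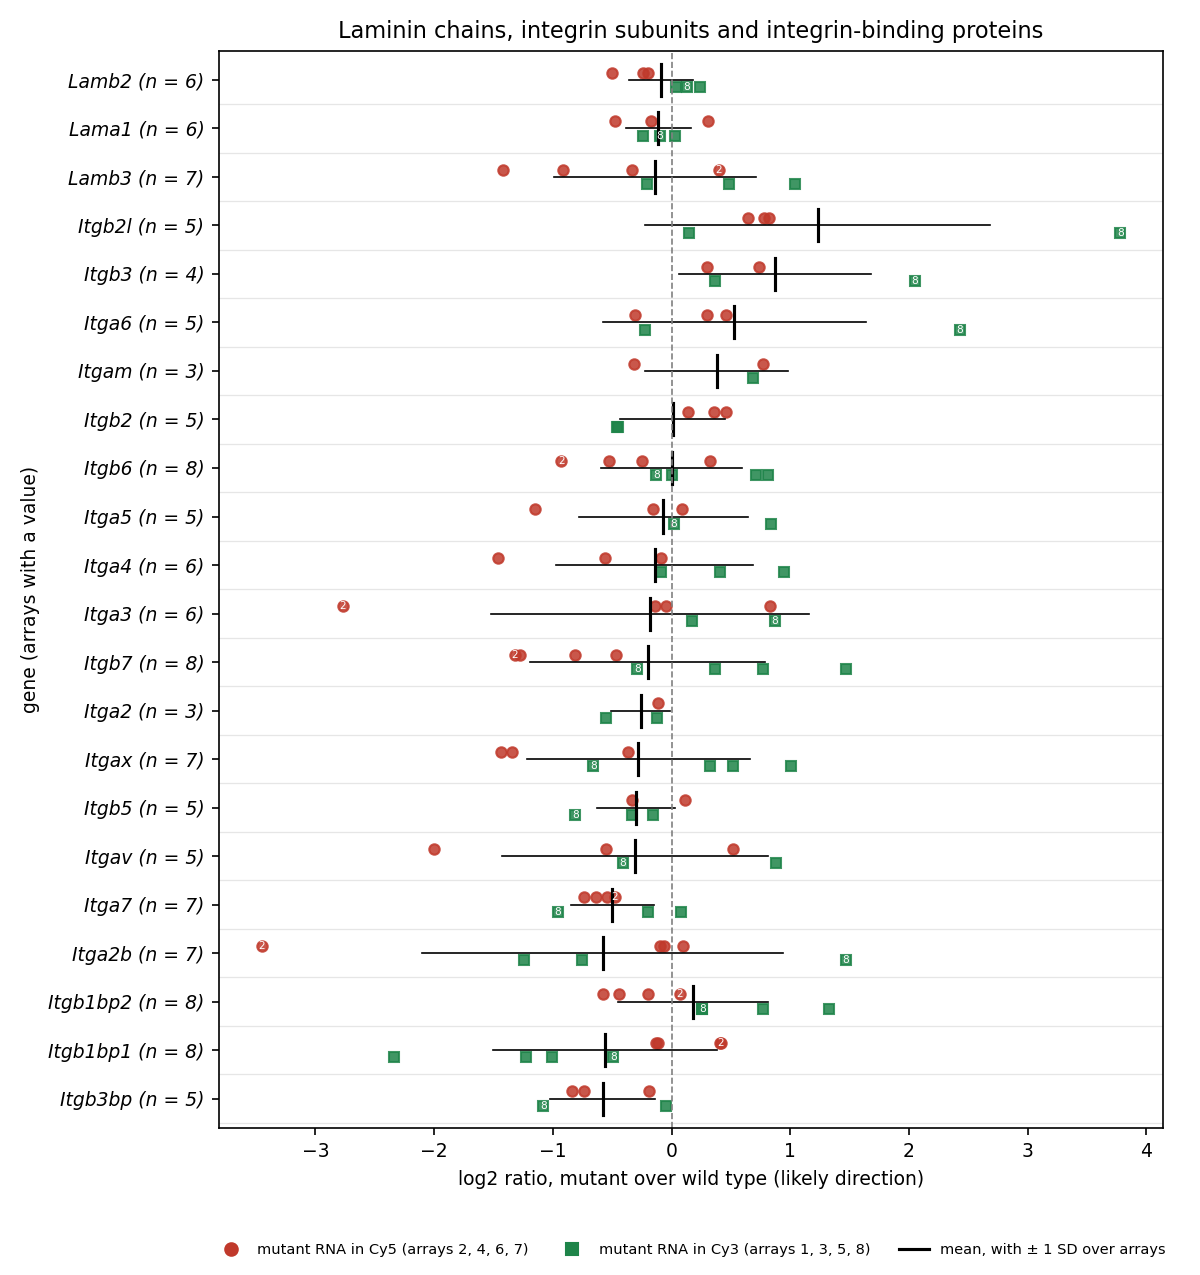
Log2 ratio of mutant over wild type (horizontal axis) on each array for 3 laminin genes, 16 integrin genes and 3 integrin-binding genes, ordered by mean within each group, with the same symbols as for the collagens. The values of Itgb2l, Itgb3 and Itga6 on array 8 and of Itga2b and Itga3 on array 2 lie far from the rest of their genes.

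Integrins that bind RGD proteins went in both directions. Itga2b, the alpha subunit of platelets, had the lowest fitted ratio of the 6 integrins tested at -0.53 ± 0.45 (SE, adjusted p = 0.554). Its values ran from -3.45 on array 2 to 1.47 on array 8, and without array 2 the mean was -0.10 ± 0.92 (SD) in place of -0.58 ± 1.52. The fitted ratio was -0.26 without array 1, -0.10 without array 2 and -0.94 without array 8. Itgb3, its beta partner, was at 0.30, 0.37, 0.74 and 2.05 on arrays 4, 5, 6 and 8, all above 0, with a mean of 0.87 ± 0.81 and of 0.47 ± 0.23 without array 8. Itgb3 had no value on arrays 1 and 2, where Itga2b was at -1.24 and -3.45. On arrays 4, 5, 6 and 8 Itga2b was at -0.10, -0.75, 0.10 and 1.47. The means of these partners thus rest on unlike sets of arrays. Of the platelet markers 6 of 9 had a probe and 2 were tested, Gp9 at -0.28 ± 0.24 and Gp1bb at -0.07 ± 0.19, and the list's median ran from -1.33 to 0.15 over the arrays. Their part in these ratios was not tested. Itgb6, a beta subunit of epithelia, had a fitted ratio near 0 with a 95% interval from -0.43 to 0.43 and 4 of 8 arrays on each side. Itgav, Itga5 and Itgb5 had means of -0.31 ± 1.12, -0.07 ± 0.71 and -0.30 ± 0.33 (SD, 5 arrays each).

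The integrins of leukocytes lay below 0 in the tested genes and above it or near it in the sparse ones. Itgax, an alpha subunit of dendritic cells and macrophages, was at -0.37, -1.34 and -1.44 on arrays 4, 6 and 7 and at 0.32, 1.01, 0.52 and -0.66 on arrays 1, 3, 5 and 8. Its fitted ratio was -0.37 ± 0.24 (SE, adjusted p = 0.421) and its dye part -1.34 ± 0.48 (adjusted p = 0.0984). Itgb7, which pairs with Itga4 on lymphocytes, was at -1.32, -0.47, -0.81 and -1.28 with the mutant in Cy5 and at 0.37, 1.47, 0.77 and -0.29 with it in Cy3 (arrays 2, 4, 6 and 7, and 1, 3, 5 and 8). Here the orientations did not overlap. The fitted ratio was -0.20 ± 0.21 (adjusted p = 0.647), beside a dye part of -1.55 ± 0.43 (adjusted p = 0.0633). Itga4 stood at -0.14 ± 0.25.

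Itgb2l, named for its likeness to the beta subunit of leukocyte integrins, had the highest mean of all 42 genes. Its values were 0.64, 0.15, 0.82, 0.78 and 3.78 on arrays 4 to 8, above 0 on 5 of 5. With array 8 its mean was 1.23 ± 1.45 (SD) and without it 0.60 ± 0.31. Itgb2 itself was at 0.01 ± 0.44 on 5 arrays and Itgam, an alpha subunit of myeloid cells, at 0.38 ± 0.60 on 3. Of 14 leukocyte markers 10 had a probe and 8 were tested, of which C1qb fell by 1.37 (SE 0.25, adjusted p = 0.0141) and 7 did not pass. Of the 8, 4 were above 0, among them Tyrobp at 0.71 and Ptprc at 0.57, and the median was 0.06. Over the arrays the median of the list ran from -0.49 to 0.84, and its part in these ratios was not tested.

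With a looser filter, values on at least 3 arrays with both orientations present, all 42 genes could be fitted, and none passed (lowest adjusted p = 0.238, against 1.70% called of 6287 genes). At an unadjusted p under 0.05 there were 5 of the 42: Itgb2l at 1.36 ± 0.47, Itgb3 at 0.87 ± 0.35, and Itgb1bp1, Itga7 and Col6a1, the 3 of the stricter filter. The first 2 had their highest value on array 8 and were measured on 5 and 4 arrays. Under the stricter filter 19.5% of all genes tested were at an unadjusted p under 0.05 in limma. The share under the looser filter was not counted. With fewer than 6 arrays an exact sign-flip test cannot go below 0.0625.

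Of the genes for proteins that bind integrin tails, Itgb1bp1 had the lowest adjusted p of the 24 genes tested. It encodes a protein that binds the tail of the beta subunit that most laminin and collagen receptors share. Its ratios were 0.41, -0.13, -0.11 and 0.42 on arrays 2, 4, 6 and 7 and -1.01, -2.34, -1.23 and -0.49 on arrays 1, 3, 5 and 8. The values below -0.2 were all from arrays with the mutant in Cy3. Its fitted ratio was -0.56 ± 0.21 (SE, adjusted p = 0.179) and its dye part 1.42 ± 0.43 (adjusted p = 0.0732). When arrays were weighted by their spread it was past the test, at -0.58 ± 0.15 (adjusted p = 0.0235), a setting under which 11.3% of all genes were called. Read as Cy5 over Cy3 its ratio turned to 0.71 ± 0.21 (adjusted p = 0.0732). Itgb1bp2, a protein of striated muscle, stood at 0.18 ± 0.18, and Itgb3bp, also a protein of the centromere, was below 0 on 5 of 5 arrays with a mean of -0.58 ± 0.44 (SD).

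The genes that process collagen, lie beside it or act with integrins gave 3 calls. Of 129 such genes in 6 lists, other than the 42, 71 had a probe and 48 were tested: 2 were higher, 1 was lower and 45 did not pass. The share called was 6.25%, against 3.47% of all genes tested, and the share higher 4.17%, against 0.662%. Beside collagen fibrils, Aspn, a small proteoglycan that binds collagen, rose by 1.01 ± 0.24 (SE, 7 of 7 arrays above 0, adjusted p = 0.0444). Fbn1, the fibrillin of elastic microfibrils, rose by 0.75 ± 0.19 (6 of 8 arrays, adjusted p = 0.0496). Fmod, the proteoglycan fibromodulin, stood at -0.84 ± 0.27, below 0 on 7 of 7 arrays (adjusted p = 0.116). In this list of fibril-associated genes 8 of 10 did not pass, and its median was 0.36.

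Rpsa, a ribosomal protein that has also been described as a laminin receptor, was the only one of 6 other collagen and laminin receptors past the test, and fell by 0.78 (SE 0.17, below 0 on 8 of 8 arrays, adjusted p = 0.0283). Sdc2, a syndecan, stood at 0.65 ± 0.19 (adjusted p = 0.0846). These 3 calls were not firm. Without 1 array Aspn lost its call in all 8 fits (adjusted p from 0.0525 to 0.110) and Fbn1 kept its own only without array 3 (0.0485, up to 0.135). Rpsa kept its call without arrays 3, 4 and 8 and lost it without arrays 1, 2, 5, 6 and 7 (adjusted p = 0.118, 0.0537, 0.0904, 0.0949 and 0.0740).

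In the lists without calls, all 7 genes of collagen processing and crosslinking that were tested had fitted ratios above 0, from Crtap at 0.01 to Sparc, a collagen chaperone of the matrix, at 0.93 ± 0.27 (adjusted p = 0.0812), with a median of 0.39. Of 10 other integrin ligands 3 were above 0, with Ccn2, a matrix protein induced in fibroblasts, at 1.84 ± 0.52 (adjusted p = 0.0757) and Spp1, osteopontin, at -0.75 ± 0.28, below 0 on 7 of 7 arrays (adjusted p = 0.180). The adhesion complex inside the cell had 7 of 10 above 0, with the focal adhesion kinase gene Ptk2 at 0.87 ± 0.32 and Cd151 at -0.25 ± 0.18. Of 5 other basement membrane proteins 2 were above 0, with Fbln2 at 0.55 ± 0.23 and Nid2 at -0.24 ± 0.24. Fibroblast markers had 9 of 10 genes with a probe and 5 tested, with Vim higher at 1.17 ± 0.19 (adjusted p = 0.00889) and 4 not past the test: Pdgfra at 1.09, Dcn at 0.47, Thy1 at -0.03 and Lum at -0.21. The median of the list ran from -0.07 to 1.40 over the arrays. The part of fibroblast number in these ratios was not tested.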

How the data were processed

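Skin RNA was measured on 8 two-colour arrays, which form 1 group of mutant over control ratios. The authors deposited log ratios, taken here as log2 values; sizes rest on that base. No source used here gives the image analysis, the normalization, the base of the logarithm or why values are missing. The columns were centred, with means from -0.057 to 0.027.

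Rows were named by accession through RefSeq genes of GRCm38.p6 (6749 of 21997 rows with a probe, and 77 by synonym). One result is not reported here. Control spots were left out, and spots and probes of a gene averaged. Arrays of the same orientation correlated above 0 in 12 of 12 pairs (median r = 0.49), those of opposite orientation in 6 of 16 (median r = -0.02), a pattern that does not settle whether the arrays were turned to one direction. This was assumed, with Cy5 over Cy3 as an alternative.

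Genes with values on at least 3 arrays of each orientation were fitted in limma 3.58.1 (R 4.3.3) with a dye term, eBayes and Benjamini-Hochberg adjustment at 0.05. The fit was checked on simulated ratios. Exact sign-flip tests used Python 3.11.15 with numpy 2.4.6. Named were genes past the threshold, those of one sign on at least 6 arrays (none of the families), and the 3 highest and 3 lowest ratios of a family. The members, gene lists, pairs and alternatives were chosen with earlier results of these data known. Alternatives were centring, scaling, quantile normalization, no dye term, other filters, a robust prior, array weights, arrays 4 to 8 alone and leaving out each array.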

Additional observations from a re-analysis of the deposited data

Results flagged for a closer look

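Dixon's test on the 40 genes with values on at least 4 arrays found 4 in which 1 array stood apart. About 1 in 20, or 2 genes, would be found by chance were the spread the same on every array. The SD over spots ran from 0.57 on array 5 to 1.60 on array 2 and was 1.10 on array 8. The share found over all genes was not counted. The 4 were Col13a1 at -3.66 on array 2 (other arrays 0.15 to 2.40), Itga3 at -2.77 on array 2 (others -0.14 to 0.87), Itga6 at 2.43 on array 8 (others -0.31 to 0.46) and Itgb2l at 3.78 on array 8 (others 0.15 to 0.82).

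The ratio differed between the dye orientations for Col17a1, with a dye part of 1.72 that passed the test. For Col11a1 (1.59), Col11a2 (0.87), Col19a1 (1.15) and Lamb2 (-0.45) every array of one orientation had the opposite sign to every array of the other, while the test of the dye part did not pass (adjusted p = 0.0589, 0.112, 0.0759 and 0.447).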

How the results depend on the processing

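The count of collagen, laminin and integrin genes past the threshold stayed at 0 under centring, scaling, quantile normalization, no dye term, both other filters, the robust prior, arrays 4 to 8 alone, leaving out each array (range 0 to 0), and leaving out arrays 2 and 8, a setting chosen after seeing the data. It was 1 for the table read as Cy5 over Cy3 (Col17a1) and 1 with array weights (Itgb1bp1). The count over all genes, 131, was 216 with scaled arrays, 350 with quantile normalization (128 higher and 222 lower, against 25 and 106), 64 without the dye term, 66 read as Cy5 over Cy3 (62 and 4), 81 with values on all 8 arrays, 428 with array weights (143 and 285) and 12 with arrays 4 to 8 alone, and ran from 53 to 130 without 1 array. The count of pathway genes, 3, was 1 with centring, 8 with scaling, 11 with quantile normalization, 0 without the dye term, 0 read as Cy5 over Cy3, 1 with the looser filter, 11 with array weights and 0 with arrays 4 to 8 alone, and ran from 0 to 4 without 1 array. No chain pair passed under its alternatives (0 in each). Without 1 array the smallest p that the sign-flip test can give rises further. No pair could then pass by itself, so these counts of 0 say little.

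Read as Cy5 over Cy3, the ratio turned for 9 of the 24 genes (37.5%, against 43.0% of all genes tested): Col19a1 (0.58), Col7a1 (-0.62), Col9a1 (0.34), Itgb6 (-0.35), Itgb1bp1 (0.71), Col2a1 (-0.66), Col5a2 (-0.53), Itgb1bp2 (-0.47) and Col5a1 (-0.07). The collagen median was then 0.02. It also turned for Itga2b with arrays 4 to 8 alone (0.17), Itgb6 with centring (-0.02) and Itgb7 without arrays 2 and 8 (0.01). Without 1 array, ratios near 0 changed sign for Col10a1 (-0.33 to 0.01), Itga4 (-0.29 to 0.05), Itgb6 (-0.11 to 0.10) and Lamb3 (-0.22 to 0.10). The dye part of Col17a1 was not past the threshold with centring (1.63, adjusted p = 0.0584), with the looser filter (0.0900) or with arrays 4 to 8 alone (1.33, adjusted p = 0.319). The causes were not tested. No paired analysis was possible because the arrays form 1 group of ratios and no label ties them to animals. Between 1 and 22 of the 42 genes had no value on an array, and the number of arrays limits the precision.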

Other observations

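The extreme values of these genes gathered on some arrays. The same counts were not made over all genes, so this is not shown to be particular to these genes. The SD over all spots also differed by array, from 0.57 on array 5 to 1.60 on array 2. Among the 40 genes with values on at least 4 arrays, the highest value lay on array 3 for 10 genes, although only 20 of the 42 had a value there, and on array 5 for 8. The lowest lay on array 4 for 10 genes and on array 7 for 8. Array 2 had values for 23 of the 42 and held the lowest single one, Col13a1 at -3.66, and array 8 the highest, Itgb2l at 3.78.

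Of nerve and endothelial markers, which also sit beside laminins in skin, Mbp, a myelin protein, fell by 0.90 (SE 0.20, adjusted p = 0.0342), the only call among 4 nerve genes tested, and none of 5 endothelial genes passed, with Cdh5 at 0.70 and Emcn at -0.76.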
